A study of Homo sapiens with 4 samples.

Results

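PEG10, MEST, IGF2, H19, MEG3 and KCNQ1OT1 are imprinted genes, which are known to be transcribed mainly from the copy inherited from 1 parent. Their loci were searched for peaks of RNA recovered with HuR in the WS1 line of human skin fibroblasts. Peaks were assigned to a locus when at least 1 bp lay within its hg19 limits, and 4 of the 36216 peaks at 5 Gy and 6 of the 47930 peaks at 0 Gy fell in the 6 loci. The set was chosen by gene symbol and, for PEG10, on these same peak lists, because its peaks were known to occur at 0 Gy and not at 5 Gy. That contrast is therefore a description, and it has no test. The groups were HuR immunoprecipitates of cells given 5 Gy of X-rays, control immunoglobulin (IgG) precipitates of 5 Gy cells, HuR precipitates of unirradiated (0 Gy) cells and IgG precipitates of 0 Gy cells. Each group had 1 library, so no value has a replicate error and no p-value was computed. All libraries came from a single line, and the time between irradiation and lysis was not given in the sources used here. A peak is a stretch where the HuR library exceeded the IgG library of the same dose, and its score is the authors' own value, whose lowest value at 5 Gy was 60.01 and whose size rises with the strength of evidence. Read depth is unknown, and the score depends on depth, so equal scores at the 2 doses need not mean equal enrichment. The lists held no expression values, so a change in HuR binding and a change in the amount of the RNA cannot be told apart. Peaks also carry no parental allele, no strand and no exon.

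HuR, the product of ELAVL1, is an RNA-binding protein that recognises U-rich and AU-rich stretches, in 3′ untranslated regions and introns above all, and is known to stabilise many of the mRNAs it binds. Imprinted genes lie in clusters in which a control region, methylated on only one parental copy, sets which copy is read. The clusters typically pair protein-coding genes read from one parental copy with long noncoding RNAs read from the other, as for IGF2 and H19. By the RefSeq gene table of GRCh38, 3 of the 6 genes (PEG10, IGF2 and MEST) are protein-coding and 3 (MEG3, H19 and KCNQ1OT1) are long noncoding RNAs.

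Several of these transcripts are also microRNA hosts. In the RefSeq tables of GRCh38.p14, 3 of the 6 genes (MEST, MEG3 and H19) span a microRNA with a listed mature sequence, and IGF2 spans the microRNA gene MIR483. The 5 mature sequences inside MEST, MEG3 and H19 have 5 distinct seeds. The 2 arms of the microRNA inside MEST are shown because MEST was the locus with HuR peaks at both doses. The seed, bases 2 to 8, is in capitals. No peak was placed relative to the hairpin, since these tables and the peak lists are on different genome builds.
hsa-miR-335-5p: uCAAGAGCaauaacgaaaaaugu
hsa-miR-335-3p: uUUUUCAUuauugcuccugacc

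HuR peaks were found at 2 of the 6 loci, and their pattern differed between those loci. PEG10 had no peak at 5 Gy, against 2 peaks at 0 Gy. MEST had 4 peaks at 5 Gy and 4 peaks at 0 Gy, each overlapping 1 peak of the other dose. MEG3, H19, IGF2 and KCNQ1OT1 had no peak at either dose. Peaks covered 3093 bp of the 151.0 kb of all loci at 5 Gy, against 9905 bp at 0 Gy, of which 6817 bp lay in PEG10.

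**Figure D1:**
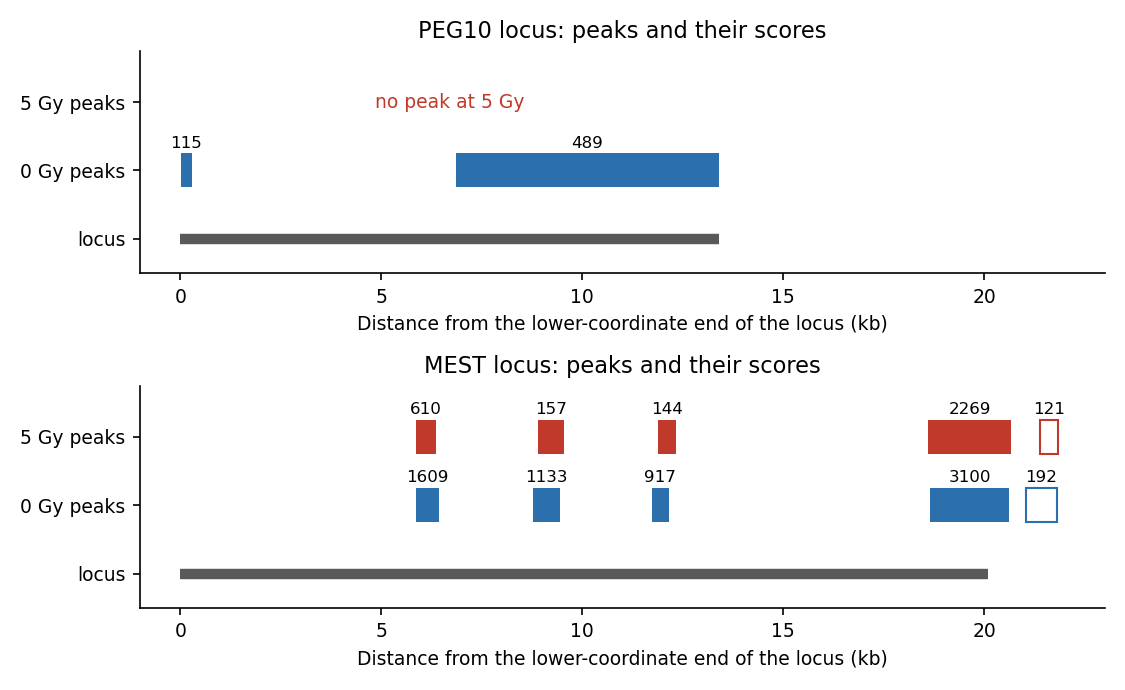
Peaks at the PEG10 and MEST loci, drawn to scale, with distance in kb from the lower-coordinate end of the locus on the horizontal axis. Red boxes are 5 Gy peaks, blue boxes are 0 Gy peaks, numbers are the authors' peak scores, open boxes are peaks just beyond the MEST limits, and the grey bar is the locus. PEG10 has no 5 Gy peak and 2 at 0 Gy, while the 4 MEST peaks recur at nearly the same places with lower scores at 5 Gy.

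PEG10, a paternally expressed gene derived from a retrotransposon, encodes gag-like and pol-like proteins through a ribosomal frameshift. Its transcript is known to have a short first exon and a long last exon with most of the coding sequence and an extended 3′ untranslated region. The locus used here was chromosome 7, 94285637 to 94299027 (13.4 kb), a gene that is read towards higher coordinates. At 5 Gy, no peak lay in it, and the nearest was 28.0 kb away on the lower side and 113.2 kb away on the higher side. At 0 Gy, a short peak of 289 bp (94285642 to 94285930, score 114.73) began 5 bp inside the start of the locus. A second 0 Gy peak of 6528 bp (94292500 to 94299027, score 489.47) ended on the last base of the locus. A stretch of 6569 bp without a peak separated them, and together they covered 6817 bp, or 50.9% of the locus. The limits of the locus came with the choice of genes, and whether its end was drawn with the peak in view is not known.

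The short PEG10 peak thus lay at the start of the locus, and the longer one ran from 6863 bp inside it to its last base. The longer peak was unusual for its length rather than for its score. Its score was higher than that of 80.0% of the 0 Gy peaks, whereas its length exceeded that of 99.6% of them. Among the 1292 peaks of the 0 Gy list with a score within 10% of its own, the median length was 808 bp, and 3 peaks, itself included, were at least as long. The short peak was ordinary by both measures: 42.4% of the 0 Gy peaks scored lower and 14.4% were shorter.

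**Figure D2:**
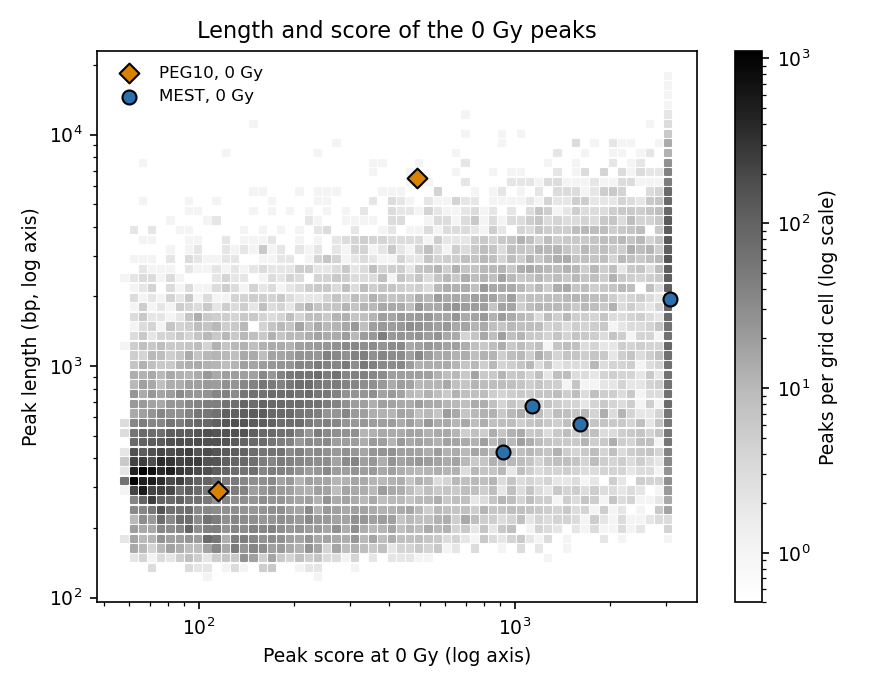
Length in bp against score for the 47930 peaks of the 0 Gy list, both on log axes, with scores above 3100 drawn at 3100. Grey squares give the number of peaks per grid cell, orange diamonds are the 2 PEG10 peaks and blue circles the 4 MEST peaks. The longer PEG10 peak (6528 bp at a score of 489.47) lies above nearly all peaks of its score. All 4 MEST peaks lie below the median length of peaks of a like score.

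Neither of the 2 PEG10 peaks overlapped a 5 Gy peak. Over the whole 0 Gy list, 41.9% of the peaks had no overlapping 5 Gy peak (95% Wilson interval 41.4 to 42.3, counting error only). Among the 9582 peaks of that list scoring 489.47 or more, 145 had none, which is 1.51% (95% interval 1.29 to 1.78). Of the 183 peaks at 0 Gy that were at least 6528 bp long, 8 had none, which is 4.37% (95% interval 2.23 to 8.39). Ordered by length, the PEG10 peak ranked 8 among the 20064 unmatched peaks at 0 Gy. These shares describe the list around a gene that had been picked for its missing counterpart, and they are no evidence about it.

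The surroundings of PEG10 held peaks at both doses. Within 100 kb on both sides there were 2 peaks at 5 Gy and 3 at 0 Gy. How many peaks stretches of this size hold elsewhere in the lists was not counted. A peak of 1528 bp at 5 Gy (94184769 to 94186296, score 1089.31) and one of 1492 bp at 0 Gy (94184788 to 94186279, score 1524.41) lay at the same place, 99.3 kb below the locus at 5 Gy and 99.4 kb below it at 0 Gy. The peak nearest to PEG10 at 5 Gy, 205 bp long with a score of 100.59 (94257474 to 94257678), had no counterpart at 0 Gy. The other 0 Gy peaks in these flanks scored 63.05 and 62.59, close to the lowest score in the list, and had no counterpart at 5 Gy. In the RefSeq gene table the next gene on the lower side is SGCE, which encodes epsilon-sarcoglycan, is also paternally expressed and is read in the opposite direction. None of the flanking peaks was assigned to a gene.

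MEST, a paternally expressed gene whose protein belongs to the alpha/beta hydrolase family, was taken as chromosome 7, 130126046 to 130146133 (20.1 kb), and is read towards higher coordinates. Its 4 peaks had the same order at both doses, and their limits differed between the doses by up to 176 bp. Within the locus they covered 3093 bp at 5 Gy, against 3088 bp at 0 Gy, or 15.4% of it at each dose. The peaks lay 5855, 8892, 11876 and 18608 bp from the start of the locus at 5 Gy, and 5869, 8778, 11730 and 18662 bp from it at 0 Gy. Before 5855 bp the locus held no peak at either dose.

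Peak 1 of MEST scored 610.38 at 5 Gy (130131901 to 130132415, 515 bp), against 1608.82 at 0 Gy (130131915 to 130132474, 560 bp). Peak 2 scored 156.67 at 5 Gy (130134938 to 130135578, 641 bp), against 1132.87 at 0 Gy (130134824 to 130135498, 675 bp). Peak 3 scored 143.84 at 5 Gy (130137922 to 130138378, 457 bp), against 916.69 at 0 Gy (130137776 to 130138202, 427 bp). In both lists the scores had the same order among the MEST peaks, with peak 4 highest, then peaks 1, 2 and 3.

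The longest MEST peak, peak 4, scored 2268.78 at 5 Gy (130144654 to 130146724, 2071 bp), against 3100.00 at 0 Gy (130144708 to 130146654, 1947 bp). Peak 4 ran past the annotated end of MEST by 591 bp at 5 Gy and by 521 bp at 0 Gy. In the RefSeq table MEST overlaps COPG2, a gene for a coatomer subunit read in the opposite direction, and also MESTIT1. Without strand and an hg19 annotation, neither peak 4 nor the other peaks of the locus can be given to MEST alone. A score of 3100 was shared by 2000 peaks at 5 Gy and 2481 peaks at 0 Gy, and it is treated as the upper limit of the scale, with the few higher scores counted as tied with it. Along the locus, the part of each 5 Gy peak that overlapped its 0 Gy partner was 97.3%, 87.5%, 61.5% and 94.0%. The pair with 61.5% was the least aligned, with both limits further along the locus at 5 Gy, by 146 bp at the start and 176 bp at the end.

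All 4 MEST pairs had a lower score at 5 Gy than at 0 Gy. The ratio of the 5 Gy score over the 0 Gy score was 0.379 for peak 1, 0.138 for peak 2, 0.157 for peak 3 and 0.732 for peak 4, whose 0 Gy score stood at the upper limit. Lower scores at 5 Gy were also usual elsewhere. Across the 17408 pairs in which 1 peak of each list overlapped only the other and both scores were under 3100, 63.9% scored lower at 5 Gy (95% interval 63.2 to 64.6), and the median ratio was 0.80 (quartiles 0.51 and 1.22). A ratio at least as low as that of peak 1 was found in 13.7% of these pairs. For peaks 2 and 3 the share was 0.73% and 1.14% of these pairs. The lowest score at 5 Gy was 60.01, so pairs with a low 0 Gy score could not reach such ratios. The share among the pairs that could reach them is larger and was not computed.

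The scores were also ranked within each dose, since ranks do not depend on the scale of the score. Among all 19750 pairs, peak 1 stood at percentile 73.6 at 5 Gy, against 82.2 at 0 Gy. Peak 2 stood at percentile 39.9 at 5 Gy, against 77.9 at 0 Gy, and peak 3 at 36.9 at 5 Gy, against 74.7 at 0 Gy. Peak 4 stood at 88.5 at 5 Gy, against 94.4 at 0 Gy. Among all pairs, 46.0% had a lower percentile at 5 Gy (95% interval 45.3 to 46.7). A drop in percentile at least as large as that of the MEST pair was seen in 27.1% of pairs for peak 1, 3.16% for peak 2, 3.21% for peak 3 and 32.1% for peak 4. Drops as large as those of peaks 1 and 4 were thus frequent in these lists, and drops as large as those of peaks 2 and 3 were less so. Pairs of low percentile at 0 Gy could not drop as far as peaks 2 and 3. Their shares are therefore larger among the pairs that could, and those were not computed. The 4 peaks belong to 1 locus and share their libraries, and they are not independent.

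**Figure D3:**
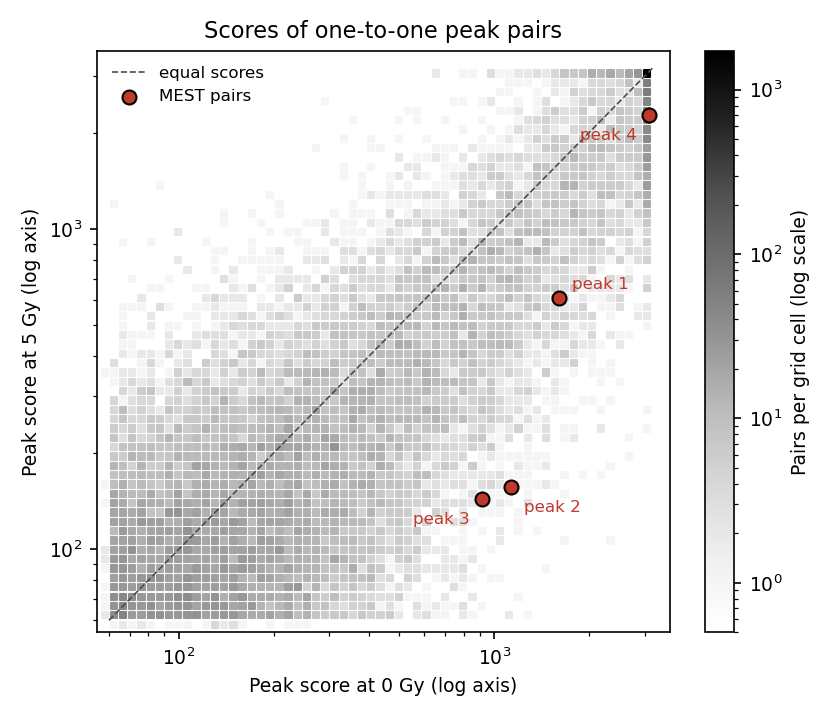
Score at 5 Gy against score at 0 Gy for the 19750 pairs in which 1 peak of each list overlapped only the other, on log axes, with scores above 3100 drawn at 3100. Grey squares give the number of pairs per grid cell, the dashed line marks equal scores and red circles are the 4 MEST pairs, numbered along the locus. All 4 lie below the line, peaks 2 and 3 at the lower edge of the cloud.

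Peaks 1, 2 and 3 of MEST were shorter than the median peak of a like score at 0 Gy. The median length of 5 Gy peaks with a score within 10% of their own was 1131 bp for peak 1 (515 bp), 641 bp for peak 2 (641 bp) and 597 bp for peak 3 (457 bp). For 0 Gy peaks that median was 1391 bp for peak 1 (560 bp), 1072 bp for peak 2 (675 bp) and 1053 bp for peak 3 (427 bp). Peak 4, at 2071 bp, was longer than its median of 1689 bp at 5 Gy, and at 1947 bp it was shorter than its median of 2143 bp at 0 Gy.

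Scores around MEST were mostly lower at 5 Gy as well. Across the lists, 63.9% of the pairs with both scores under 3100 also scored lower at 5 Gy. Whether the pairs around MEST differ from the lists in this was not tested. A peak just beyond the higher end of the locus scored 121.39 at 5 Gy (429 bp, 1.3 kb away), against 191.91 at 0 Gy (777 bp, 0.9 kb away). Within 100 kb of MEST there were 6 such pairs outside the locus, of which 5 scored lower at 5 Gy and 1 scored 3100 at both doses. On the lower side, at least 81.3 kb away, 4 pairs scored lower at 5 Gy: 146.08 at 5 Gy against 158.68 at 0 Gy, 68.72 against 105.51, 158.73 against 810.03 and 96.14 against 385.88. The ratios of the 5 Gy score over the 0 Gy score were 0.921, 0.651, 0.196 and 0.249 for these pairs and 0.633 for the pair on the higher side. They ranged widely, as did the 0.138 to 0.732 of the pairs inside the locus.

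The noncoding members and IGF2 had no peak in either list. MEG3, a maternally expressed noncoding RNA, was searched over chromosome 14, 101292445 to 101327360 (34.9 kb). H19, a maternally expressed noncoding RNA that is abundant in fetal tissue, was searched over chromosome 11, 2016406 to 2019065 (2.7 kb). IGF2, which encodes the paternally expressed insulin-like growth factor 2, was searched over chromosome 11, 2150347 to 2170833 (20.5 kb). KCNQ1OT1, a paternally expressed antisense RNA that silences neighbouring genes in cis, was searched over chromosome 11, 2661768 to 2721228 (59.5 kb). A missing peak says only that HuR did not exceed IgG past the authors' threshold, and the level of these RNAs was not analysed here.

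These 4 loci lay in wide stretches without any peak. H19 and IGF2 shared a single empty stretch of 1100.0 kb at 5 Gy and 1067.6 kb at 0 Gy. KCNQ1OT1 lay in one of 546.6 kb at 5 Gy and 546.4 kb at 0 Gy, and MEG3 in one of 549.5 kb at 5 Gy and 549.4 kb at 0 Gy. The limits of these stretches were nearly the same at both doses, except that a 187 bp peak (1330676 to 1330862, score 213.11) shortened the H19 and IGF2 stretch at 0 Gy. Such stretches are a small share of the gaps by number and most of the length between peaks. Gaps of at least 500 kb numbered 1387 of 36192 at 5 Gy and 1359 of 47906 at 0 Gy, and made up 63.1% of all the length between peaks at 5 Gy and 60.7% at 0 Gy. Gaps had a median of 4.15 kb at 5 Gy, against 2.72 kb at 0 Gy. PEG10 at 5 Gy lay in a shorter empty stretch of 154.5 kb, and 3526 gaps of the 5 Gy list were at least as long.

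**Figure D4:**
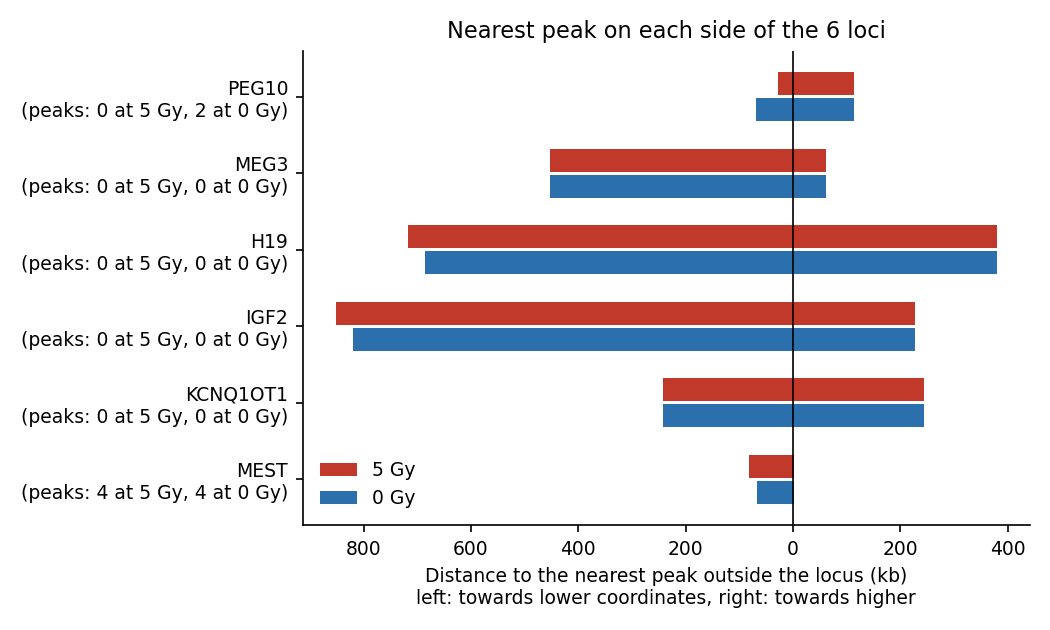
Distance in kb from each locus to the nearest peak outside it, towards lower coordinates on the left and higher coordinates on the right, with red bars for 5 Gy and blue bars for 0 Gy. The number of peaks inside each locus is given beside its name. Bars of the 2 doses have nearly the same length for MEG3 and KCNQ1OT1, and the lower-side bars of H19 and IGF2 reach 685.5 kb or more at both doses.

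No peak at 5 Gy in the 6 loci lacked a 0 Gy counterpart. Over the whole 5 Gy list, 27.0% of the peaks had none (95% interval 26.6 to 27.5). With 4 peaks, all from MEST, this count says nothing about imprinted transcripts as a class. Whether depth, RNA level or binding set the missing 5 Gy peaks of PEG10 was not tested.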

How the data were processed

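RNA immunoprecipitation sequencing of WS1 fibroblasts gave 4 libraries, which the authors deposited as 2 peak lists, HuR over IgG at 5 Gy and at 0 Gy. Per the submitters' processing notes, cutadapt 1.9.1 and Bowtie2 2.2.4 were used on hg19. The peak names in the deposited lists begin with MACS, and its version is not given in the sources used here. The only value per peak is the score the authors deposited. Starts were converted to count from 1.

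The members and lists were chosen with earlier results of these data known. Locus limits were used as given with the choice of genes. All loci and, with at most 8 peaks per dose, all their peaks were named. Peaks were matched at 1 bp overlap, strand ignored, in Python 3.11.15 with numpy 2.4.6, pandas 2.3.3 and scipy 1.17.1, and the matching was tested on simulated data. Percentiles treat scores of 3100 and above as tied. Intervals are Wilson 95% and treat peaks as independent. Score minima, locus limits, joining and overlap rules were varied. No hg19 annotation or genome was used here, so other imprinted genes, fibroblast markers and the sequence of peaks were not analysed. GRCh38 tables served for gene names, neighbours, strands and microRNAs only.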

Additional observations from a re-analysis of the deposited data

How the results depend on the processing

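Under 9 other settings, 42 values were recomputed for the numbers of peaks, matched peaks, covered bases and loci with a peak. Of these, 36 were identical to the reported value, 41 lay within 1.5 times of it, and 1 did not. Some of the identical values follow from the scores already given. No peak in the loci scored below 114.73, so a minimum score of 100 could remove none. The 5 Gy peaks in the loci scored 143.84 or more, above the median of that list (143.375), so a minimum at the median could remove none of them. At scores at or above the list's median, PEG10 had 1 peak at 0 Gy in place of 2, because its short peak scored below that median by construction of the setting, and it still had 0 at 5 Gy. PEG10 had 0 peaks at 5 Gy under every setting run on it, also with the locus widened by 10 kb. No setting could have changed this value. The nearest 5 Gy peak lay 28.0 kb away, and the settings other than widening could add no peak. The setting with equal numbers of peaks from each list, and for PEG10 that with peaks wholly inside the locus, were chosen after seeing the data. No paired analysis was possible because the labels give 1 library per group and no replicate numbers. Read depth is unknown, and it limits every comparison of scores and of missing peaks between the doses.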

Other observations

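Beyond MEG3, on its higher-coordinate side, strong HuR peaks were present at both doses. At 5 Gy a peak of 2060 bp (101396119 to 101398178, score 2256.23) and one of 5329 bp (101398197 to 101403525, score 1472.97) lay 68.8 and 70.8 kb from the locus. At 0 Gy a single peak of 6837 bp (101396135 to 101402971, score 3100.00) lay at the same place. The stretch beyond MEG3 is known to hold RTL1, MEG8 and many small RNA genes of the same imprinted cluster, and the peaks were not assigned to any of them.

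The nearest peak to KCNQ1OT1 on its higher-coordinate side scored 3100.00 at both doses, with 1318 bp at 5 Gy (2965628 to 2966945) and 1572 bp at 0 Gy (2965489 to 2967060). On the lower side the nearest peak scored 1905.86 at 5 Gy (1191 bp) and 1882.35 at 0 Gy (1273 bp). The limits of the peak-free stretch around KCNQ1OT1 were thus set by strong peaks that recurred at both doses.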
